A study of Mus musculus with 6 samples.

Results

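Mitochondrial ribosomal proteins are the proteins of the ribosome that works inside mitochondria, and their genes are named Mrpl for the large and Mrps for the small subunit. Array probes were taken as members when their accession mapped to a symbol of either kind followed by a digit, with Mrpl23 left out, and of several probes for a gene the brightest in Cy3 (mean over arrays) was used. Of 77 such genes in the RefSeq gene table, 65 had a probe, out of 12362 named genes and 37939 genes and unnamed probes tested. They were 40 of 48 large subunit genes and 25 of 29 small subunit genes. No probe was paired with Mrpl14, Mrpl15, Mrpl17, Mrpl22, Mrpl36, Mrpl41, Mrpl44, Mrpl48, Mrps10, Mrps18b, Mrps18c and Mrps26, which are not analysed here. All 65 had Cy3 signals on all 6 arrays above the level that 95% of the 314 negative controls stay under, and 0 were saturated in either channel.

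The RNA came from small intestinal crypts, the pockets of the gut lining that hold its dividing progenitors, cut out by laser from frozen sections of 6 C57BL/6 mice aged 120 days. The 3 LOI(+) mice (loss of imprinting) carried a maternally inherited deletion of the H19 gene and the region upstream with its differentially methylated region, which per the design activates the maternal Igf2 allele. The 3 LOI(-) mice were wild type from the same kind of cross, an H19+/- female with a wild-type male. Crypt RNA of 1 mouse per array carried Cy3, and Universal Mouse Reference RNA, mixed from several lines of cultured cells, carried Cy5 on every array. Values are log2 of crypt over reference, so 0 is the level at which crypt and pool are equal after normalization and a step of 1 is a doubling. Dyes were never exchanged, so any dye effect of a probe is part of its ratio to the pool, and it is shared by both groups.

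The mitochondrial ribosome makes the few proteins that the mitochondrial genome encodes, all of them core subunits of the respiratory chain and ATP synthase. Its own proteins are all encoded in the nucleus, made in the cytosol and imported, and part of them descend from bacterial ribosomal proteins while the others were added in the mitochondrial lineage. Inherited defects in several of them disturb respiration in human disease.

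The arrays had median Cy3 signals of 552 to 603 over a local background of 387 to 391. LOI(+) 2 stood apart from the rest, with the lowest mean correlation to the other arrays (0.948, against 0.955 to 0.963) and 146 outlier features against 14 to 50. Most counts and medians of the members and of the lists, and most of the named differences between groups, are therefore also given without it. H19 had no probe paired, and Igf2 lay between 0.04 and 0.16 on the LOI(-) arrays and between 0.07 and 0.11 on the LOI(+) arrays, so the deleted gene itself did not check the labels. Sex was labelled male for 4 mice and was not labelled for LOI(-) 3 or LOI(+) 2. The Y-linked gene Eif2s3y had log2 ratios of 1.04 to 2.02 on the 6 arrays. The epithelial markers (8 of 8 above the negative controls on every array) had a median log2 ratio of 2.36 and the Paneth cell markers (4 of 4) 4.13, while the fibroblast markers stood at -2.69. In such bulk samples, fewer cells of a type and less RNA per cell cannot be told apart.

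The promoters of several members share short motifs of factors known to act on nuclear genes for mitochondria, and 4 are shown as examples. They were picked from members whose groups did not overlap, so they do not stand for all members with a match. RefSeq promoter windows of 300 bases (250 before and 50 after the start, GRCm38.p6) were at hand for 57 of the 65 members. NRF1 (nuclear respiratory factor 1) was searched as GCGCA, any base, then GCGC, ETS or GABP factors as CCGGAAGT and YY1 as AAGATGGCG, each on both strands. Matches are in capitals, on the strand of the gene. Mrpl12 (chr11:120484387-120484686, plus strand), Mrps9 (chr1:42850983-42851282, plus strand) and Mrpl45 (chr11:97315466-97315765, plus strand) hold the NRF1 letters, Mrpl45 with 3 matches, and Mrpl37 (chr4:107066817-107067116, minus strand) holds the YY1 letters.
Mrpl12: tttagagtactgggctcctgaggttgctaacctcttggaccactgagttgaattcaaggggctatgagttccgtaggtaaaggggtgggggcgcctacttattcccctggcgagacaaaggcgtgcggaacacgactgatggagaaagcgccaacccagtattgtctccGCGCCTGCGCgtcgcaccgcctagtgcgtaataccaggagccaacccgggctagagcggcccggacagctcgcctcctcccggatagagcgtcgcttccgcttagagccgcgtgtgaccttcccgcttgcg
Mrps9: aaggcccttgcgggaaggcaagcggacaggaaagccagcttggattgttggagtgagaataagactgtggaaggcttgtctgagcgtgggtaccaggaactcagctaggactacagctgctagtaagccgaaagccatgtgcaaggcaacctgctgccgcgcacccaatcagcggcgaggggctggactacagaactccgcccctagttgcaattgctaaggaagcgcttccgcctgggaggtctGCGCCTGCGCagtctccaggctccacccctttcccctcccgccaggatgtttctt
Mrpl45: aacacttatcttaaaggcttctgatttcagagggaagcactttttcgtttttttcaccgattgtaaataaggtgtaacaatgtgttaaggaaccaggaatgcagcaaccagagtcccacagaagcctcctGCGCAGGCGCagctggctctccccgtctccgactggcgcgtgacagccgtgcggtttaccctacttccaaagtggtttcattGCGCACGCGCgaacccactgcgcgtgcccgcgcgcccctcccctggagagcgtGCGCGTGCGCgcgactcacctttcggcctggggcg
Mrpl37: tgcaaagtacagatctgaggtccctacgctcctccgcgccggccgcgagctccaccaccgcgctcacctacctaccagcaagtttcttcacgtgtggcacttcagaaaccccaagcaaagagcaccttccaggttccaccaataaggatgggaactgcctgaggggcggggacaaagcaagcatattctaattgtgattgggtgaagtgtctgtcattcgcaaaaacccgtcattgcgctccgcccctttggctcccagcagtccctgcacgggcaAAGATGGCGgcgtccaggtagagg

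A gene was counted when any of its windows held a match. The NRF1 letters were in the windows of 9 of the 57 members (15.8%), against 5.19% of all 27025 genes with a window and 7.17% of the 17492 protein-coding ones. Its palindromic form, a case of the same letters, was in 3 (Mrpl9, Mrpl32 and Mrpl39), against 1.07% of all genes. The ETS letters were in 9 members (15.8%, against 4.31% of all genes and 5.69% of coding ones), 7 of the large and 2 of the small subunit. The YY1 letters were in 7 members (12.3%, against 1.64% of all and 2.14% of coding genes), namely Mrpl35, Mrpl37, Mrpl42, Mrps11, Mrps18a, Mrps24 and Mrps27. A total of 24 members had some match, and Mrps27 alone had matches of 2 kinds. The median log2 difference between the groups described below was 0.16 with the NRF1 letters, 0.20 with the ETS and 0.21 with the YY1 letters, and 0.22 without each of them. These are counts of genes with the letters in a window, and no binding was measured. A pair of members shares a promoter region. Mrpl46 and Mrps11 lie head to head on chromosome 7 with starts 42 bases apart, and their windows overlap by 141 bases (chr7:78783040-78783180), a stretch in which none of the motifs was found.

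Against the reference pool, the family as a whole was close to the level of cultured cells, and individual members ranged from well above it to well below it. The median log2 ratio was 0.12 over the 65 members, 0.12 in the large and 0.14 in the small subunit, against -0.0013 over all genes and unnamed probes. A total of 31 members (47.7%) were higher in crypts at an adjusted p under 0.05 in limma, 14 (21.5%) were lower and 20 passed in neither direction. Over everything tested, 31.8% were higher and 32.6% lower. Among the 5762 features with a mean Cy3 signal at or above the lower quartile of the members, a comparison added after seeing the data, 48.1% were higher and 29.7% lower, with a median of 0.09. The share of members higher in crypts was thus near that of other bright features. The sign of the family median depends on the normalization. With each array centred on its median without loess, it was -0.25 (large -0.27, small -0.07). Then 18 members were higher and 37 lower, against 42.2% and 41.4% of everything tested, and the median of the bright features moved to -0.31. Without LOI(+) 2 the family median was 0.09, with 30 members higher and 21 lower (everything tested 29.4% and 30.7%).

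In the large subunit, the highest ratios belonged to Mrpl12, Mrpl55, Mrpl24, Mrpl34 and Mrpl46. Mrpl12, the stalk protein that also binds the mitochondrial RNA polymerase, read 1.27, 1.43 and 1.57 on the LOI(-) arrays and 1.93, 2.05 and 1.69 on the LOI(+) arrays. Its mean was 1.66 ± 0.06 (SE of the limma fit, from the spread within groups, 6 arrays). That is a 3.15-fold higher level in crypts than in the pool (adjusted p = 3.33e-07 in limma), and every array lay above 1. Mrpl55 was at 1.40 ± 0.06 (SE), Mrpl24 at 1.37 ± 0.05, Mrpl34 at 1.27 ± 0.06 and Mrpl46 at 1.00 ± 0.07. The 95% intervals of Mrpl55, Mrpl24 and Mrpl34 overlap, so their order is not resolved. Mrpl24 was dim, with Cy3 signals of 602 to 658 and Cy5 signals of 466 to 496, and without background correction its ratio was 0.48.

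At the other end, the Mrpl38 probe used was lowest. This protein of the large subunit, related to phosphatidylethanolamine-binding proteins, read -2.35, -2.37 and -2.53 in LOI(-) and -2.27, -2.54 and -2.50 in LOI(+), a level 5.38-fold lower than in the pool (adjusted p = 1.87e-08 in limma). A second probe for the gene, without overlap, read -0.18 (1.14-fold lower), and the mean of both was -1.31. Mrpl30 followed at -0.86 ± 0.09 (SE) and Mrpl13 at -0.75 ± 0.08. Mrpl32, whose maturation by a mitochondrial protease is a step of ribosome assembly, was at -0.35 ± 0.11, and Mrpl39 was at -0.33 ± 0.07. The call for Mrpl32 was lost without LOI(-) 1, LOI(-) 2 or LOI(+) 3, where its ratio was -0.34, -0.30 and -0.37.

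The small subunit spread less. Mrps12, a protein of the decoding centre, was highest. It read 0.83, 0.83 and 1.04 in LOI(-) mice against 0.92, 1.13 and 1.07 in LOI(+) mice, so the groups overlap, with a mean of 0.97 ± 0.04 (SE), or 1.96-fold (adjusted p = 1.25e-06 in limma). Mrps31 was at 0.77 ± 0.10, Mrps34 at 0.66 ± 0.05, Mrps9 at 0.60 ± 0.03 and Mrps28 at 0.59 ± 0.05. The lowest were Mrps6 at -0.50 ± 0.07, Mrps17 at -0.40 ± 0.04, Mrps18a at -0.38 ± 0.08, Mrps33 at -0.36 ± 0.07 and Mrps15 at -0.27 ± 0.06. With a log2 ratio of at least 0.5 also required, 17 members were higher (11 large, 6 small) and 3 were lower, all large (background 9.45% and 11.6%). Of the 5762 bright features, 1697 were higher and 882 lower by the same rule. The share of members higher was thus not above that of the bright features. None of the 20 ratios named here changed sign in any alternative run, but they were picked as the most extreme. Their sizes did change. Outside the fits with an array left out, Mrps9 ranged from 0.12 to 0.61 and Mrps17 from -0.87 to -0.39.

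**Figure D1:**
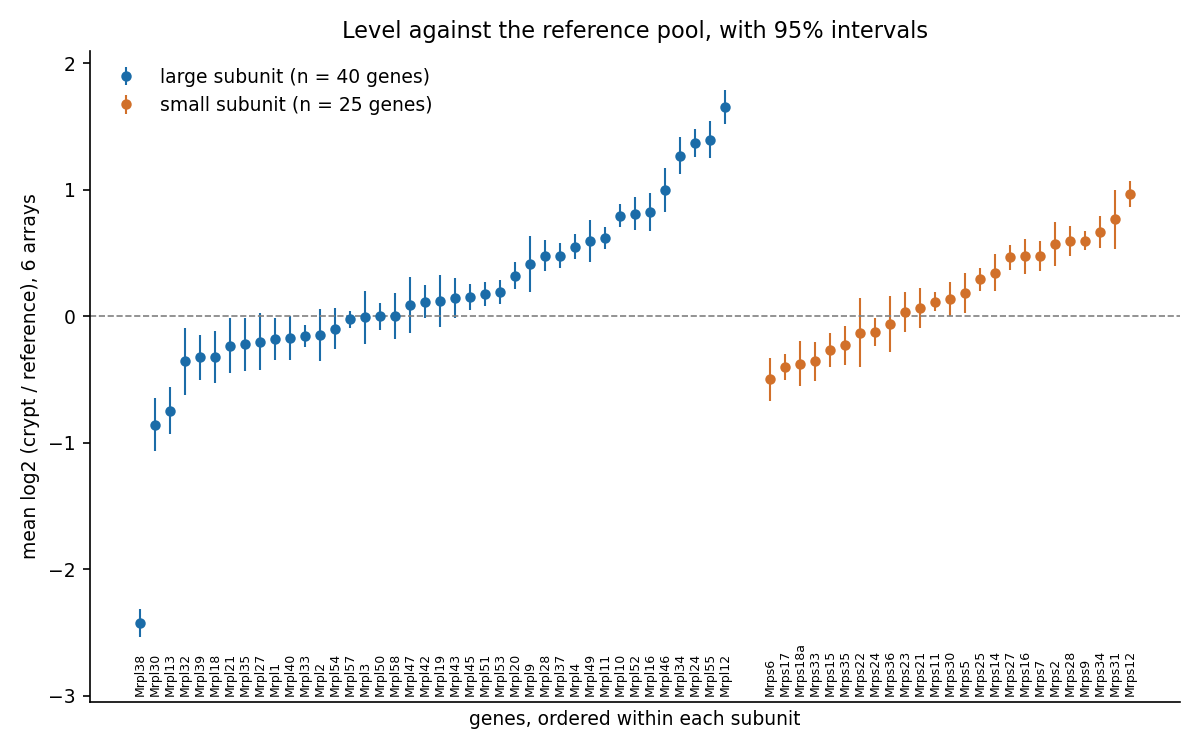
Mean log2 ratio of crypt over reference for each of the 65 genes (points, 6 arrays) with its 95% interval from the limma fit (bars). The 40 large subunit genes are in blue and the 25 small subunit genes in orange, each ordered by value. Most genes lie within 1 of the zero line, Mrpl12 is highest at 1.66 and Mrpl38 is lowest at -2.43, a value its second probe (-0.18) does not share.

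The small subunit had a slightly higher median level than the large on 5 of the 6 arrays. The median of the large minus that of the small subunit was -0.10, -0.16 and -0.02 on the LOI(-) arrays and -0.04, -0.10 and 0.00 on the LOI(+) arrays. That gives -0.09 ± 0.07 (SD, n = 3) and -0.05 ± 0.05 (SD, n = 3), and -0.07 ± 0.06 (SD, n = 6) over all arrays. The groups overlap. Structures place Mrps18a and Mrps30 in the large subunit, and Mrps36 is now known as a part of the 2-oxoglutarate dehydrogenase complex. With those 3 genes moved or left out, the medians over the 6-array means were 0.12 for 42 large and 0.24 for 22 small subunit genes. The 36 members on a written list of bacterial homologues had a median of 0.12 and the 29 others of 0.14. The list may miss homologues, so the 29 are not all certain to be specific to mitochondria.

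A total of 17 members had 2 probes of 60 bases, which allows a check of each ratio on a different stretch of the transcript. In 6 genes the probes overlapped, sharing runs of 23 to 58 bases, and in 11 genes they did not, with no shared run above 7 bases. Overlapping and separate probes are shown for 3 genes, with the shared run in capitals and the brighter probe, which was used, named first.
Mrps36 used: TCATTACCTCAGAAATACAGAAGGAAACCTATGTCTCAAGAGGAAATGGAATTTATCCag
Mrps36 other: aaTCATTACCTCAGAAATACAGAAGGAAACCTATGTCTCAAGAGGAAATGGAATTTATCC
Mrpl30 used: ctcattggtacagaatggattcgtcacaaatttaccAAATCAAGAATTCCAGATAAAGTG
Mrpl30 other: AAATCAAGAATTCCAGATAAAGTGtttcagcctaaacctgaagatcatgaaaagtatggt
Mrpl38 used: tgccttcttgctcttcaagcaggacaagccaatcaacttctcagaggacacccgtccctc
Mrpl38 other: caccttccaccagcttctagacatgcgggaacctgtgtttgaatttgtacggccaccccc

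Overlapping probes gave nearly the same ratio to the pool, and separate probes often did not. The Mrps36 probes, which share 58 bases, read -0.06 and -0.08, and the Mrpl30 probes, which share 24 bases, read -0.86 and -0.82. Over the 6 overlapping pairs the gap in level was 0.01 to 0.07. Over the 11 separate pairs it was 0.04 to 2.24 with a median of 0.64, and in 6 pairs the signs were opposite. The low ratio of Mrpl38 was of this kind, -2.43 at the probe used and -0.18 at the other. Mrpl11 read 0.62 and -0.57, and Mrpl21 read -0.23 and 0.63. The brighter probe had the higher ratio in 9 of the 11 separate pairs. It was chosen by its Cy3 signal, the upper part of that ratio, so the choice favours a higher level. With all probes of a gene averaged, the family median was 0.10, with 29 members higher and 17 lower (everything tested 31.6% and 33.1%).

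**Figure D2:**
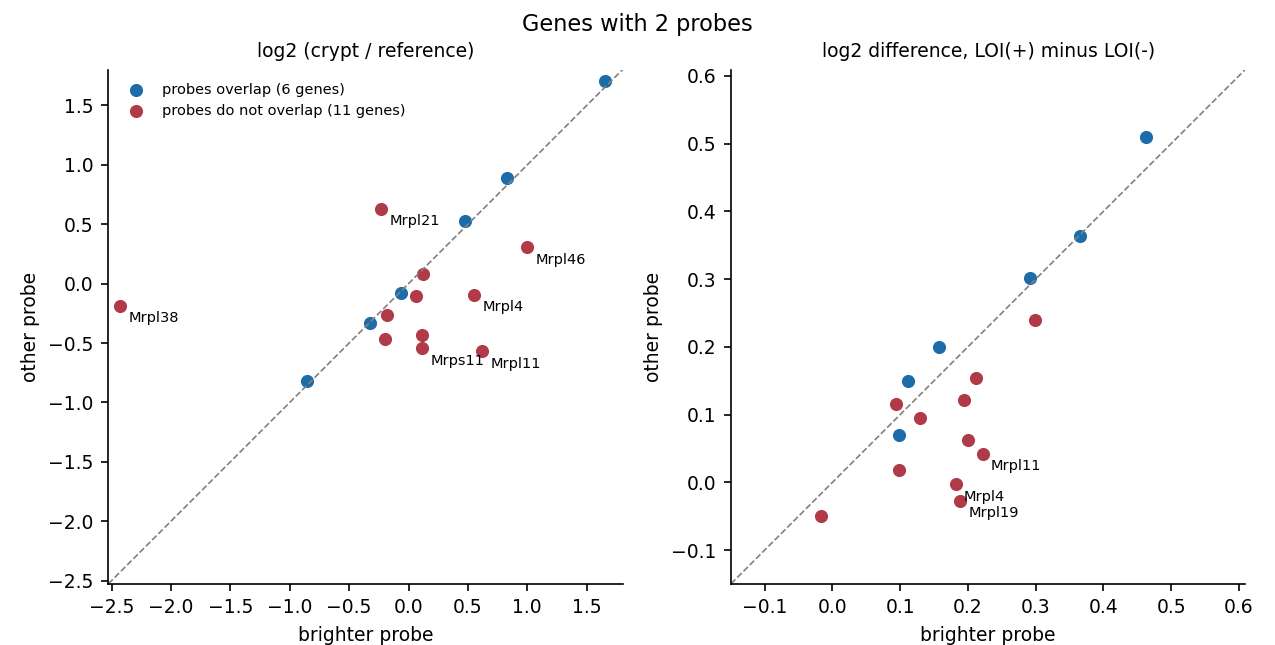
Values of the brighter (horizontal) and the other probe (vertical) of the 17 genes with 2 probes, for the log2 ratio to the reference (left) and the log2 difference between groups (right), with the dashed line of equality. Overlapping probes (blue, 6 genes) lie on the line in the left panel, while Mrpl38, Mrpl11 and Mrpl21 are among the separate probes (red, 11 genes) far from it.

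The main comparison asked whether loss of imprinting was accompanied by other expression in crypts. No gene passed the adjusted threshold. Of 37939 genes and unnamed probes, 0 had an adjusted p under 0.05 in limma (the smallest was 0.801), and 0 of the 65 members did. At an unadjusted p under 0.05, 1486 genes and unnamed probes were higher in LOI(+) (3.92%) and 847 were lower (2.23%). Among the members 14 were higher at that level (21.5%) and 0 were lower, and among the bright features 8.33% were higher. The mean was higher in LOI(+) for 63 of the 65 (96.9%), against 51.2% of everything tested and 58.2% of the bright features. The differences were small. Their median was 0.21 on the log2 scale, a fold of 1.16, with the middle 50% of members between 0.14 and 0.30, against 0.0027 over everything and 0.029 over the bright features. Replicates here are separate mice per the labels.

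Array by array, the median of the 65 members was -0.05, -0.03 and 0.18 in LOI(-) 1 to 3 and 0.01, 0.41 and 0.22 in LOI(+) 1 to 3. LOI(+) 2 and LOI(+) 3 were the highest, but LOI(+) 1 lay below LOI(-) 3, so the groups overlap. The group means of these medians were 0.03 ± 0.13 (SD, n = 3) and 0.21 ± 0.20 (SD, n = 3). Of the 65 members, 62 were above their own mean in LOI(+) 2, 58 in LOI(+) 3, 41 in LOI(-) 3 and 18 in LOI(+) 1, and 5 and 7 in LOI(-) 1 and LOI(-) 2. LOI(+) 2 was the highest array for 58 members, and the lowest array was LOI(-) 2 for 35 and LOI(-) 1 for 22. The members thus moved largely together from mouse to mouse, also within a group. Of the 5762 bright features, 3227 were above their own mean in LOI(+) 2, 3320 in LOI(+) 3 and 3340 in LOI(-) 3. The counts were 2796 in LOI(+) 1, 2826 in LOI(-) 1 and 1791 in LOI(-) 2. Of 61 nuclear oxidative phosphorylation subunits, read below, the counts in the same order of arrays were 55, 58, 50, 11, 19 and 1. The pattern over arrays was thus not particular to the members.

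**Figure D3:**
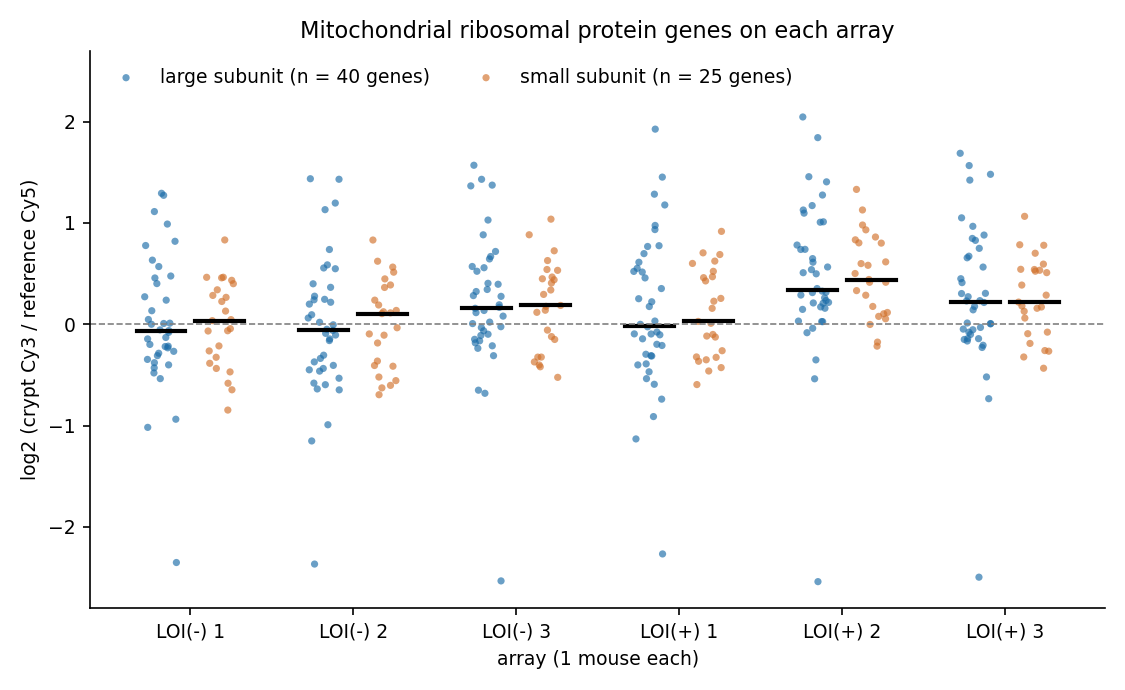
Log2 ratio of crypt over reference for the 40 large (blue) and 25 small subunit genes (orange) on each array, 1 mouse each, with black bars at the medians. The bars are highest for LOI(+) 2 (0.34 and 0.44), and those of LOI(+) 1 (-0.01 and 0.03) lie below those of LOI(-) 3 (0.16 and 0.19).

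Leaving out arrays moved the size of this shift and not its direction. Without LOI(+) 2 the median difference was 0.11, 59 of 65 members had a higher mean, and 7 (10.8%) were at an unadjusted p under 0.05, against 2.32% of everything tested. Without LOI(-) 1 or LOI(-) 2 the members at that level were 5 each (7.69%, against 3.14% and 2.42%), and without LOI(+) 3 they were 8 (12.3%, against 3.83%). Without LOI(+) 1 they were 34 (52.3%, against 6.01%) and without LOI(-) 3 they were 29 (44.6%, against 4.66%). No gene passed the adjusted threshold in any of these 6 fits.

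**Figure D4:**
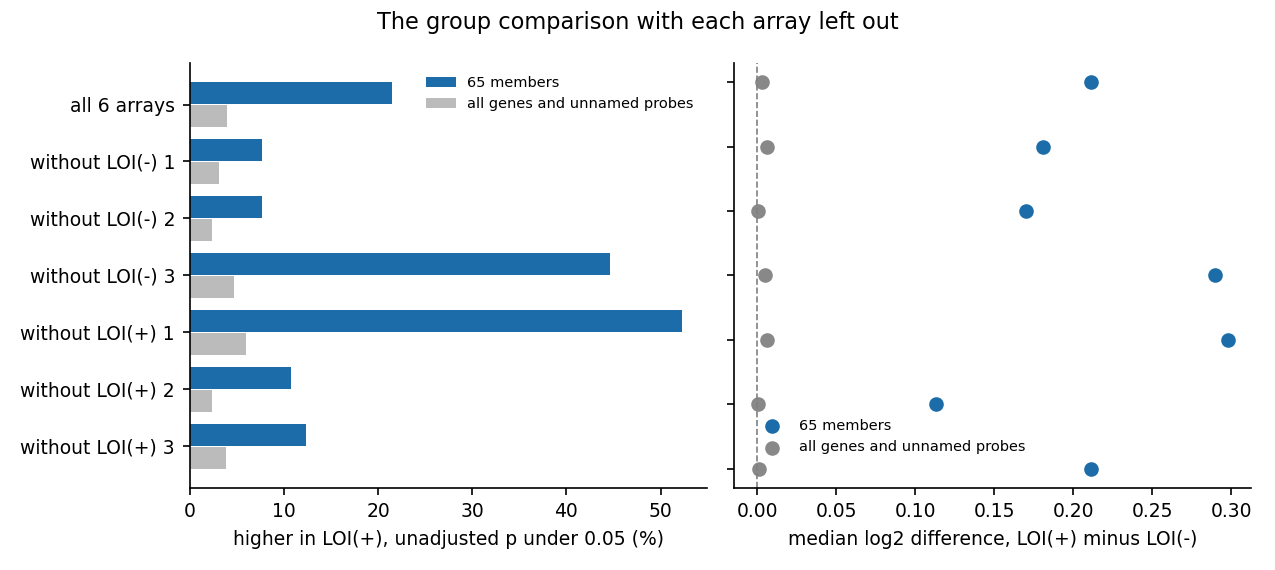
Share of the 65 members (blue bars) and of all genes and unnamed probes (grey bars) that were higher in LOI(+) at an unadjusted p under 0.05 (left, percent), and median log2 difference of both (right), with all 6 arrays and with each array left out. The share of members runs from 7.69% to 52.3% and their median from 0.11 to 0.30, while the median of everything stays near 0.

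The 3 LOI(+) arrays lay above all 3 LOI(-) arrays for 12 members (18.5%), 7 of the large and 5 of the small subunit, against 6.34% of everything tested and 8.78% of the bright features. The reverse held for 1 member, Mrpl51, against 4.97%. Every adjusted p below is from limma over all 37939, and none passed.

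The separated large subunit members include proteins of the stalk and its base. The stalk is the flexible arm that recruits translation factors, and Mrpl10 and Mrpl11 anchor Mrpl12 to the ribosome. Mrpl12 (NCBI gene 56282), with the values given above, had a mean of 1.42 ± 0.15 (SD, n = 3) in LOI(-) and 1.89 ± 0.18 (SD, n = 3) in LOI(+). The difference was 0.46 ± 0.11 (SE), a fold of 1.38 (adjusted p = 0.801). Its other probe gave 0.51 ± 0.12, and without LOI(+) 2 the difference was 0.38 ± 0.12. Mrpl10 (NCBI gene 107732) read 0.63, 0.55 and 0.67 in LOI(-) and 0.98, 1.10 and 0.85 in LOI(+). Its lowest LOI(+) mouse lay above its highest LOI(-) mouse by more than the range of the LOI(-) group, and the difference was 0.36 ± 0.08 (adjusted p = 0.801), or 0.29 ± 0.08 without LOI(+) 2. Mrpl11 (NCBI gene 66419) read 0.48, 0.40 and 0.64 against 0.70, 0.74 and 0.75, a difference of 0.22 ± 0.07 (adjusted p = 0.801). That is about the median of the large subunit (0.22), its other, dimmer probe gave 0.04 ± 0.16, and without LOI(+) 2 it was 0.22 ± 0.09.

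Mrpl37 (NCBI gene 56280), a large subunit protein specific to mitochondria, read 0.27, 0.22 and 0.40 in LOI(-) and 0.55, 0.78 and 0.66 in LOI(+). The groups were apart, by 0.37 ± 0.08 (SE, adjusted p = 0.801) and by 0.31 ± 0.08 without LOI(+) 2. Mrpl55 (NCBI gene 67212) read 1.11, 1.13 and 1.37 against 1.45, 1.84 and 1.48, a difference of 0.39 ± 0.12, which was 0.26 ± 0.10 without LOI(+) 2. Mrpl45, which sits at the exit of the peptide tunnel and ties the ribosome to the inner membrane, differed by 0.23 ± 0.09. For that gene LOI(+) 3 was highest, at 0.41, and the closest mice of the groups were at 0.16 and 0.17. Mrpl20 differed by 0.25 ± 0.09, with its closest mice at 0.34 and 0.35. Without LOI(+) 2 these were 0.25 ± 0.10 and 0.20 ± 0.10. Mrpl49, whose arrays overlapped, differed by 0.38 ± 0.14 and had an unadjusted p under 0.05.

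In the small subunit, the separated members all have bacterial homologues. Mrps9 (NCBI gene 69527) read 0.40, 0.45 and 0.54 in LOI(-) and 0.69, 0.80 and 0.70 in LOI(+). This was the tightest of the set, with 0.46 ± 0.07 (SD, n = 3) against 0.73 ± 0.06 (SD, n = 3), a difference of 0.27 ± 0.06 (SE, adjusted p = 0.801) and of 0.23 ± 0.07 without LOI(+) 2. Mrps7 (NCBI gene 50529), an early-binding protein of the small subunit head, read 0.22, 0.24 and 0.41 against 0.60, 0.86 and 0.53, a difference of 0.37 ± 0.10 (adjusted p = 0.801), or 0.28 ± 0.08 without LOI(+) 2. Mrps15 differed by 0.34 ± 0.12 and Mrps16, mutated in a human mitochondrial disease, by 0.28 ± 0.11, each with LOI(+) 2 highest and the closest mice of the groups less than 0.01 apart. Without LOI(+) 2 these were 0.24 ± 0.10 and 0.17 ± 0.10. Mrps11 was apart by little, 0.10 ± 0.06, and by 0.04 ± 0.06 without LOI(-) 1, while its other probe gave 0.02 ± 0.13. Its head-to-head neighbour Mrpl46 differed by 0.30 ± 0.15 with overlapping arrays. Mrps17 (0.23 ± 0.09) and Mrps18a (0.36 ± 0.15) had an unadjusted p under 0.05 with overlapping arrays. At that level were 6 of the 14 Mrps members on the list of bacterial homologues and 0 of the 11 other Mrps members. Their medians were 0.19 and 0.16, and the share at that level was 3.92% of everything and 8.33% of the bright features. Of these, Mrps18a (among the 6) and Mrps30 and Mrps36 (among the 11) are not small subunit proteins by the placement above. By that placement, 5 of 22 small and 9 of 42 large subunit genes were at that level. Among Mrpl members the counts on and off the list were 4 of 22 and 4 of 18. The difference between the classes was not tested.

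**Figure D5:**
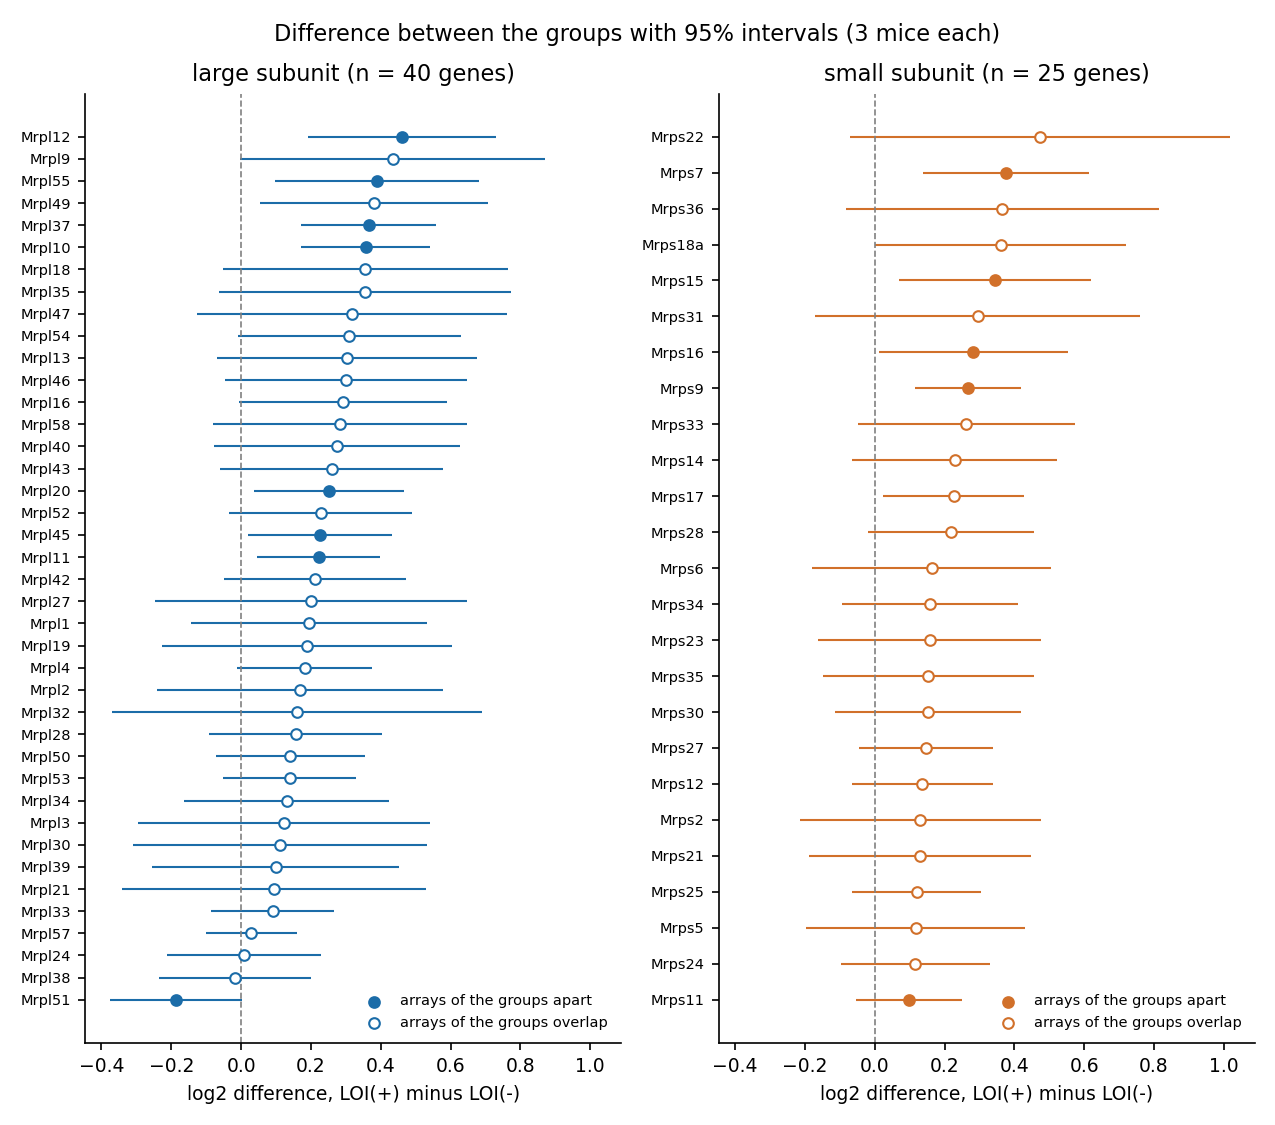
Log2 difference of LOI(+) minus LOI(-) for each gene (points) with its unadjusted 95% interval (bars), large subunit on the left and small subunit on the right. Filled points mark the 13 genes whose arrays did not overlap between groups. All 25 small subunit genes and 38 of 40 large subunit genes lie to the right of zero, and most intervals cross it.

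Further members had overlapping arrays. Mrps22, a small subunit protein mutated in human disease, had the largest difference of the family, 0.47 ± 0.23 (SE). Its arrays read -0.33, -0.63 and -0.15 in LOI(-) and -0.33, 0.58 and 0.06 in LOI(+), so LOI(+) 1 was as low as LOI(-) 1, and without LOI(+) 2 the difference was 0.24 ± 0.17. Mrps36 had the same order of mice, at -0.26, -0.41 and -0.06 against -0.26, 0.50 and 0.13, with 0.37 ± 0.19 at the probe used and 0.36 ± 0.18 at the other, and 0.18 ± 0.15 without LOI(+) 2. Mrpl3, a protein near the peptidyl transferase centre, read -0.08, -0.11 and -0.02 against -0.20, 0.50 and -0.14. Its difference of 0.12 ± 0.18 turned to -0.10 ± 0.07 without LOI(+) 2, the array on which alone it was high. Mrps12 differed by 0.14 ± 0.09 and Mrps30 by 0.15 ± 0.11, and without LOI(+) 2 by 0.09 ± 0.09 and 0.05 ± 0.10.

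The members with a lower mean in LOI(+) were Mrpl51 and Mrpl38. Mrpl51 read 0.24, 0.24 and 0.32 in LOI(-) and -0.03, 0.03 and 0.23 in LOI(+), a difference of -0.19 ± 0.08 (SE, adjusted p = 0.810). It was the dimmest member, with Cy3 signals of 468 to 496 where the negative controls reached 439 to 449, and without background correction its difference was -0.05. Without LOI(+) 2 it was -0.16 ± 0.09. Mrpl38 was at -0.02 ± 0.09, and its sign turned in 6 alternatives.

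The subunits shared the shift. The median difference was 0.22 over the 40 large and 0.16 over the 25 small subunit genes, or 0.13 and 0.09 without LOI(+) 2. It was 0.19 over the 36 members on the list of bacterial homologues and 0.23 over the 29 others. The gap between probes was smaller for these differences, which are themselves smaller than the levels. Over the 6 overlapping probe pairs they differed by 0.0016 to 0.05 and over the 11 separate pairs by 0.02 to 0.22, with a median of 0.07. The sign was opposite in 2 separate pairs, Mrpl19 (0.19 and -0.03) and Mrpl4 (0.18 and -0.0024). The brighter probe gave the higher difference in 10 of the 11 separate pairs, and with all probes averaged the family median was 0.18.

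The rest of mitochondrial translation was read from lists written with textbook knowledge, and 0 genes of any list passed the adjusted test. Several of these counts depended on single arrays, LOI(+) 2 among them, as given after them. As background, the mean was higher in LOI(+) for 51.2% of everything tested and 58.2% of the bright features. Without LOI(+) 2 these shares were 50.2% and 56.6%. Of ribosomal proteins under other names, 4 of 4 had a higher mean in LOI(+), with a median difference of 0.15. Ptcd3, a small subunit protein with RNA-binding repeats, differed by 0.30 ± 0.11 (SE) and Dap3, the GTP-binding protein of that subunit, by 0.04 ± 0.10. Of translation factors, 7 of 8 were higher (median 0.16), and Gfm1, the elongation factor that moves the ribosome along, read -0.43, -0.30 and -0.13 against -0.03, 0.33 and 0.08, a difference of 0.41 ± 0.12 with no overlap. Of ribosome assembly factors, 17 of 19 were higher (median 0.07). Gtpbp10, a GTPase of large subunit assembly, read 0.88, 0.97 and 1.05 against 1.39, 1.32 and 1.39. All 3 LOI(+) mice lay well above, by 0.39 ± 0.06, and by 0.42 ± 0.08 without LOI(+) 2. Nsun4, an RNA methyltransferase of the same process, differed by 0.27 ± 0.09. Without LOI(+) 2, 4 of the 4 other-name ribosomal proteins (median 0.12), 5 of 8 translation factors (0.04) and 10 of 19 assembly factors (0.004) were higher, and Gfm1 differed by 0.31 ± 0.10. Leaving out LOI(-) 1 instead gave 9 of 19 assembly factors (median -0.001), against 15 to 18 of 19 without any other array. The other-name proteins were 2 of 4 without LOI(-) 2 (0.06) or LOI(+) 3 (0.10) and 4 of 4 in the other fits.

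Of the mitochondrial tRNA synthetases and the amidotransferase, 8 of 11 were higher (median 0.13), with Hars2 at 0.21 ± 0.09 (SE) and Wars2 at -0.18 ± 0.05. Of genes for copying and transcribing mitochondrial DNA, 4 of 6 were higher (median 0.04), and Tfam, which packages that DNA and starts its transcription, differed by 0.27 ± 0.07 with no overlap. Nuclear oxidative phosphorylation subunits were higher in 51 of 61 (median 0.12), among them Cyc1 (cytochrome c1) at 0.34 ± 0.09, while Atp5e was at -0.36 ± 0.13. Regulators of mitochondrial biogenesis did not share the direction, with 3 of 8 higher and a median of -0.06. Ppargc1a, the coactivator of that program, was at -0.17 ± 0.08 and Gabpa, a subunit of the ETS factor GABP, at 0.15 ± 0.08. The transcript of Nrf1 itself differed by -0.08 ± 0.07. Without LOI(+) 2 the counts were 8 of 11 for the synthetase list (median 0.09), 3 of 6 for mitochondrial DNA (0.02), 39 of 61 for oxidative phosphorylation (0.04) and 4 of 8 for the regulators (-0.01). Tfam then differed by 0.24 ± 0.08. Leaving out LOI(-) 2 instead gave 38 of 61 oxidative phosphorylation subunits higher (median 0.03) and 5 of 8 regulators (0.06). In the fits without any other array these counts were 49 to 56 of 61 and 3 of 8.

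Genes of replication and mitosis also had higher means in LOI(+). Of 15 measured, 14 had a higher mean in LOI(+) (everything tested 51.2%, bright features 58.2%). At an unadjusted p under 0.05, 8 were higher (everything tested 3.92%, bright features 8.33%). The median difference was 0.36, with 0 past the adjusted threshold. Without LOI(+) 2 the counts were again 14 and 8 (everything tested 50.2% and 2.32%), with a median of 0.32. Their array medians were -1.02, -0.92 and -0.54 in LOI(-) and -0.53, -0.52 and -0.42 in LOI(+), so LOI(-) 3 was the high array of its group here as it was for the members. Their summed Cy3 signal was 17290 to 21250 in LOI(-) and 24190 to 28950 in LOI(+). The median differences of the cell type marker lists were mostly below 0. The median was -0.17 for epithelium (7 of 8 lower in LOI(+), summed Cy3 90890 to 122400 against 100800 to 121200) and -0.26 for Paneth cells (4 of 4 lower, 89340 to 154200 against 85540 to 112900). It was -0.14 for goblet cells (5 of 5 lower) and 0.07 for crypt base stem cells (2 of 4 lower). Without LOI(+) 2 these medians were -0.07 for epithelium (7 of 8 lower) and -0.25 for Paneth cells (3 of 4 lower). They were -0.10 for goblet cells (4 of 5 lower) and 0.25 for stem cells (1 of 4 lower). The stem cell median was -0.11 when LOI(+) 3 was left out instead. On LOI(+) 2 the Paneth median (3.96, against 4.23 to 4.52 on the others), the goblet median (4.39, against 4.48 to 4.66) and the stem cell median (0.45, against 0.71 to 1.40) were each at their lowest, on the array where the members were at their highest. Single markers did not all share this. Of the Paneth markers only Mmp7 was lowest there, and of the stem cell markers only Axin2 and Sox9. Smoc2 read 3.11 there, below LOI(+) 3 alone. The goblet markers other than Clca1 were lowest there. Villus enterocyte markers were higher in 4 of 5 (median 0.19). With LOI(+) 2 left out this was 4 of 5 (0.18), and with LOI(-) 1 left out 3 of 5 (0.05). Smooth muscle and endothelium had 4 of 5 markers each above the negative controls on all 6 arrays (Lmod1 on 0, Tek on 3), and in the other lists all measured markers were. The part of proliferation and of cell makeup in the result was not tested. The LOI(-) images were extracted before the LOI(+) images, and this order cannot be told apart from the group.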

How the data were processed

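Crypt RNA of 6 mice (3 LOI(+), 3 LOI(-)) was hybridised in Cy3 against reference RNA in Cy5. The authors deposited spot intensities of both channels read by Agilent Feature Extraction (version 7.5.1), per the file headers, as unnormalized mean signal and local background, and as processed intensity after background subtraction and LOWESS. The deposited series table holds log10 values, which matched log10 Cy3 minus log10 Cy5 plus the mean log10 Cy5 (r of 0.998 or more across features, column medians 2.90). For deviations from the mean over arrays, r was 0.834 for LOI(-) 3 and 0.967 to 0.985 for the others. The table gives no level against the reference and was used as an alternative. The deposited log10 ratios of the scanner files were not used.

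Of 41006 probes, 15429 (37.6%) were named by accession or synonym (1 member by synonym) through a RefSeq table of GRCm38.p6, which also gave the promoter sequences. In limma 3.58.1 (R 4.3.3), signals were corrected with normexp (offset 50) and normalized by loess with controls and outlier spots at weight 0. Outlier spots were then left out (Mrpl28 has no value on LOI(-) 1), saturated spots kept and spots of a probe averaged. Values are log2 of Cy3 over Cy5. The 2 groups were fitted with lmFit and eBayes, two-sided, and p-values adjusted by Benjamini-Hochberg across the 37939 genes and unnamed probes, with a call at 0.05, and the scripts were tested on simulated data. The level is the mean of both group coefficients. Lists are described by counts and medians, with no test.

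Named are members whose groups do not overlap, the 5 of smallest p in each direction, the 5 highest and lowest ratios per subunit, a fixed set of known members, and the list genes at an unadjusted p under 0.05 or the 2 of smallest p, of which examples are printed. Mrpl49, Mrpl19, Mrpl4, Mrpl21 and Nrf1 were added after their values were seen. Members and lists were chosen with earlier results of these data known. The number of arrays limits the precision. Alternatives changed the background correction, normalization, probes, filters, weights and model, and left out each array.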

Additional observations from a re-analysis of the deposited data

How the results depend on the processing

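No gene was called for loss of imprinting in any of the 18 alternatives. The median difference of the members ran from 0.113 to 0.298 with an array left out and from 0.178 to 0.263 otherwise, and 59 to 64 of the 65 had a higher mean. Members higher at an unadjusted p under 0.05 numbered 5 to 34 with an array left out and 10 to 18 otherwise, and everything tested 881 to 2280 with an array left out. Members with groups apart numbered 12 to 40 with an array left out and 9 to 16 otherwise. A group with an array fewer separates more easily by design, so the rise to 40 is not a stronger result. The share of everything tested that lay apart was counted only in the main fit (6.34%). Members lower at that level numbered 0 to 1 with an array left out and 1 with processed signals, median centring, the deposited table, all probes averaged, a trend in eBayes or the replicate block. Replicate numbers did not pair the mice (same-numbered correlations -0.09, -0.25 and 0.35). With the number as a block, 13 members (20%, against 4.49% of everything tested) were higher at an unadjusted p under 0.05, with a smallest adjusted p of 0.651 over everything. Aquantile normalization leaves ratios as they are, so its values are the same by construction.

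Against the reference, median centring without loess gave 18 members higher and 37 lower (everything tested 42.2% and 41.4%). The medians were then -0.246 (all), -0.267 (large), -0.0739 (small) and -0.193 (large minus small). A log2 ratio of at least 0.5 left 17 and 3 (everything tested 9.45% and 11.6%), and sorting by place in the ribosome gave -0.121 for large minus small. Of the values named for single genes, 688 recomputed ones were the same in direction and call, 9 reversed and 3 (Mrpl32) lost the call. Mrpl38 turned to 0.0350 without background correction and 0.0561 with median centring, and ran from -0.101 to 0.0356 with an array left out. Dap3 ran from -0.0216 to 0.134 with an array left out, below 0 without LOI(-) 2 or LOI(+) 3, and Mrpl3 from -0.0999 without LOI(+) 2 to 0.248. Apart from the arrays left out, the cause was not tested. Signal over background limits Mrpl51 and Mrpl24.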
